A study of Mus musculus with 8 samples.

Results

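Complement genes were followed in the aorta of mice infused with angiotensin II (AngII), a peptide that raises blood pressure, and in the weeks after the infusion had ended. The 9 genes are C1qa, C1qb, C1qc, C1ra, C2, C4b, C3, Cfb and C3ar1, taken by symbol from the 35896 genes of the count table. RNA from the aortas of 16 male C57BL6 mice had been sequenced as 8 libraries, with pieces of the aortas of 2 mice pooled in every library and 2 libraries in each group. Infused mice received AngII at 2.8 mg/kg/d for 2 weeks by osmotic minipump, implanted at 11 weeks of age, and were sacrificed at the end of the infusion (AngII), or 2 weeks (AngII+2W) or 3 weeks (AngII+3W) after it. CTRL mice were untreated littermates matched for age, and the labels do not give the time at which the CTRL libraries were taken. The samples are whole tissue, so that more cells of a type and more RNA per cell cannot be told apart. Acta2, the smooth muscle actin that defines the arterial media, had 6505 to 62753 counts in a library.

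Complement is a cascade of plasma and tissue proteins that marks microbes, immune complexes and dying cells. In the classical pathway, C1q recognises a target and the proteases C1r and C1s cut C4 and C2, while in the alternative pathway factor B joins C3b. Both pathways cleave C3 into C3b, which stays on the surface, and C3a, a small peptide that signals to cells through the receptor C3aR. Plasma complement is made largely by the liver, but C1q comes mainly from macrophages, and fibroblasts and fat cells of many tissues make C3, C4, factor B and factor D.

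The 9 genes lie on 3 chromosomes of the mouse genome (GRCm38). C1qa (chr4:136895917-136898803), C1qc (chr4:136889804-136893065) and C1qb (chr4:136880129-136886187) lie side by side on the reverse strand of chromosome 4. C1ra (chr6:124512405-124523443, forward) and C3ar1 (chr6:122847138-122856161, reverse) are on chromosome 6. C4b (chr17:34728380-34743882), Cfb (chr17:34856374-34862518) and C2 (chr17:34862604-34898265), in the class III region of the major histocompatibility complex, and C3 (chr17:57203970-57228136) are on the reverse strand of chromosome 17. All 9 are annotated as protein coding.

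The stretches upstream of C1qb, C3 and C3ar1 are shown. In these, all or nearly all of the 250 bases before the RefSeq start also lie before the annotated gene start. Neither a change in AngII nor a motif match decided which were shown. They were searched for letters of motifs known from inflammatory genes. RefSeq promoters (GRCm38.p6) were available for 5 of the 9 genes (C1qb, C1qc, C1ra, C3 and C3ar1), and only bases before the annotated starts are printed. Capitals mark matches, searched on both strands in the part of the 250 bases before the RefSeq start that also lies before the annotated gene start. This part is 250 bases for C1qb and C3, 246 for C3ar1, 99 for C1qc and 34 for C1ra. Positions count back from the RefSeq start, which for C3ar1 lies 4 bases beyond the end of the stretch shown. They are 2 overlapping matches to the kappa B letters (GGGA, any 3 bases, TCC) in C1qb, the first at -191, 3 separate matches to the C/EBP letters TTNNGNAA in C3, at -70, -58 and -45, and 1 match to the AP-1 letters TGANTCA in C3ar1, at -22.
C1qb (chr4:136886201-136886450, reverse): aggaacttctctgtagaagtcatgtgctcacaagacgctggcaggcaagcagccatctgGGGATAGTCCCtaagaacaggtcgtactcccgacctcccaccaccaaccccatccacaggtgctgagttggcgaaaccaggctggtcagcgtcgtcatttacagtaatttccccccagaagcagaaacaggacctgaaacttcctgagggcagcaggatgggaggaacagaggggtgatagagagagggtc
C3 (chr17:57228137-57228386, reverse): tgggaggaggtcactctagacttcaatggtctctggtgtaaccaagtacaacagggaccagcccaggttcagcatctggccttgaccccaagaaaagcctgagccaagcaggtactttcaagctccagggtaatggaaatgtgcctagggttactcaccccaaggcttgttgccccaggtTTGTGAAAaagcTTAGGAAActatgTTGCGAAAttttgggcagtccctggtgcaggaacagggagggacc
C3ar1 (chr6:122856162-122856407, reverse): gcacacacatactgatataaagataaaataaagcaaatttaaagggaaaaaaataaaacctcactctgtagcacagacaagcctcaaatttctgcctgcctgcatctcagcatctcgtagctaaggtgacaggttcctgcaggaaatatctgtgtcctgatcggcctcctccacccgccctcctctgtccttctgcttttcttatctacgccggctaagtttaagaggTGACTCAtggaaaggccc
Of 32851 promoters searched over 250 bases, 3.86% held the kappa B letters, 36.8% the C/EBP letters and 6.75% the AP-1 letters. The letters of GAS (TTCNNNGAA, in 7.02%), ISRE (GAAA, any 2 bases, GAAA, in 2.98%) and PU.1 (GAGGAAG, in 10.6%) were searched in the same way, and the only match was 1 to PU.1, in C1qc. C1ra had no match to any of the 6 motifs in the 34 bases searched. Such matches describe the sequence and do not show that a factor binds there.

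Library totals ran from 18130441 to 21498200 counts, and a count of 3, taken as the floor of detection, corresponded to 0.140 to 0.165 CPM (counts per 1000000 of the library total, which for the levels of genes was normalized by TMM). AngII+3W replicate 1 stood apart, with 0.247% of its counts on skeletal muscle genes against at most 0.00731% elsewhere. Mitochondrial genes held 18.3% of this library and 8.15% to 13.5% of the others. Cardiac muscle genes held 0.448% and 0.205% of the counts in CTRL, with 0.120% and 0.0797% for AngII, 0.0149% and 0.000749% for AngII+2W and 0.488% and 0.0329% for AngII+3W. Both CTRL libraries were thus above both AngII libraries, and these above both AngII+2W libraries, and the part of such tissue in the levels of the complement genes was not tested. Adipocyte genes, among them Adipoq, held 0.437% to 0.657%. Of all genes, 17182 passed the filter on low counts and were tested, including all 9 complement genes.

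In AngII, C1qb, C4b, C3, Cfb and C3ar1 rose against CTRL, by 2.16-fold (C3) to 3.57-fold (C3ar1), at an FDR below 0.05 (false discovery rate, the Benjamini-Hochberg adjusted p over all genes tested, from the quasi-likelihood test of edgeR). These are 5 of the 9 genes, while 2.9% of all genes tested were called higher. C1qa, C1qc, C1ra and C2 had log2 fold changes of 0.78 to 1.43 and did not pass. All 9 had an unadjusted p below 0.05 and a higher level, against 10.9% of all genes, and in all 9 both AngII libraries were above both CTRL libraries, against 24.4% of all genes. The median log2 fold change of the 9 was 1.43, and that of all genes -0.0085. Together the 9 genes held 0.165% and 0.196% of all counts in CTRL and 0.419% and 0.440% in AngII.

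**Figure D1:**
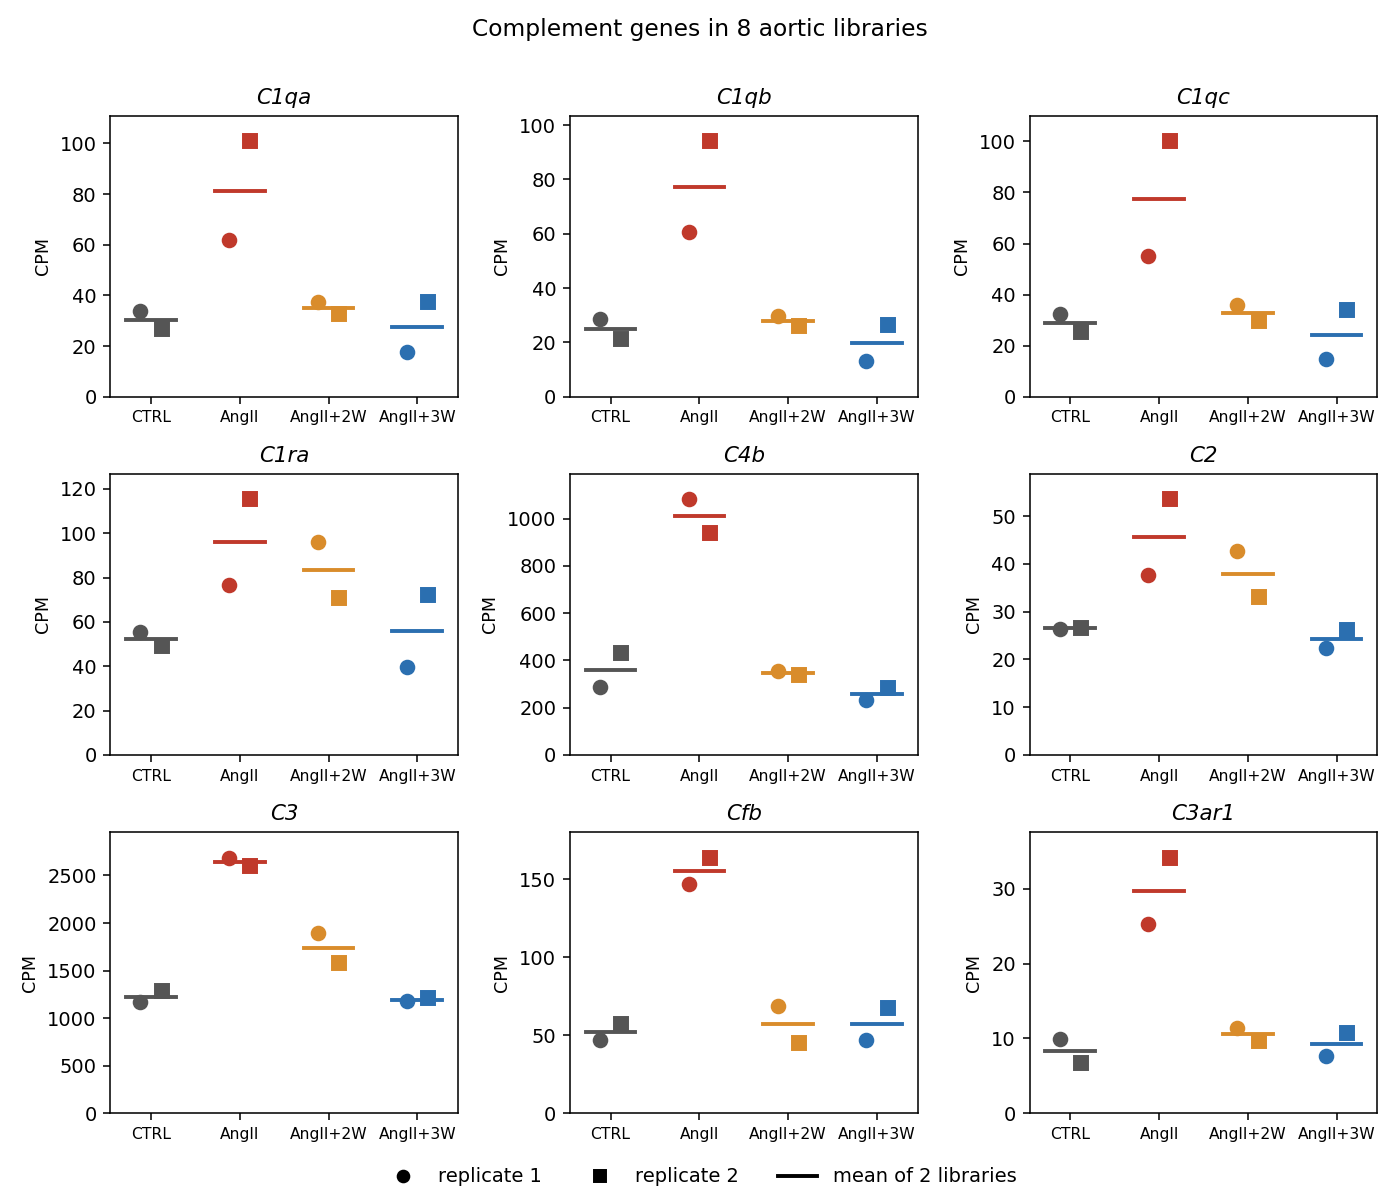
Level of each complement gene (CPM, linear axis from 0) in the 8 libraries, by group; circles are replicate 1, squares replicate 2 and lines the mean of 2 libraries. In every panel both AngII points lie above both CTRL points, and for C3 the AngII+2W points (1583 and 1894 CPM) lie between those of CTRL and AngII.

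The 3 chains of C1q, the molecule that starts the classical pathway, were followed first. C1qb had 28.6 and 21.3 CPM in CTRL, with 60.5 and 94.1 for AngII, 29.7 and 25.9 for AngII+2W and 13.01 and 26.5 for AngII+3W. Both AngII libraries stood above the other 6, which overlapped among groups, and AngII+3W replicate 1 was the lowest. The log2 fold change of C1qb in AngII was 1.63 (standard error (SE) 0.345, edgeR FDR 0.0404). C1qa had 33.8 and 26.6 CPM in CTRL, with 61.8 and 100.9 for AngII, 37.5 and 32.6 for AngII+2W and 17.5 and 37.2 for AngII+3W. C1qc had 32.3 and 25.4 CPM in CTRL, with 55.1 and 100.1 for AngII, 36.0 and 29.5 for AngII+2W and 14.8 and 33.9 for AngII+3W. Their order over the libraries resembled that of C1qb, and in all 3 chains the 2 AngII libraries lay far apart. The log2 fold change in AngII was 1.43 for both C1qa (SE 0.361, edgeR FDR 0.0671) and C1qc (SE 0.404, edgeR FDR 0.0906), so that neither passed.

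C1ra encodes the protease C1r, which C1q activates. It had 55.3 and 49.0 CPM in CTRL, with 76.6 and 115 for AngII, 96.0 and 70.7 for AngII+2W and 39.6 and 72.3 for AngII+3W. The AngII and AngII+2W libraries overlapped, and all 4 were above CTRL. The log2 fold change was 0.88 in AngII (SE 0.312, edgeR FDR 0.163) and 0.68 in AngII+2W (SE 0.311, edgeR FDR 0.499). The near-identical C1rb (97.9% identity over 81.5% of the C1ra transcript) had at most 1 count in a library.

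C2 and C4b encode the substrates of the C1 proteases, which together form the classical C3 convertase. C4b had 286 and 434 CPM in CTRL, with 1082 and 940.1 for AngII, 357 and 339 for AngII+2W and 234 and 286 for AngII+3W. Its AngII libraries stood far above the other 6, while AngII+2W lay within the range of CTRL and AngII+3W below it. Its log2 fold change in AngII was 1.49 (SE 0.223, edgeR FDR 0.0161). C4b shares 95.9% identity over its whole transcript with C4a, which was not analysed here, and reads of the pair could be exchanged between them, so that the value of C4b is uncertain. C2 had 26.5 and 26.6 CPM in CTRL, with 37.7 and 53.5 for AngII, 42.7 and 33.1 for AngII+2W and 22.4 and 26.2 for AngII+3W. Its log2 fold change in AngII was 0.78 (SE 0.199, edgeR FDR 0.0688), and the AngII and AngII+2W libraries overlapped.

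C3 is the component on which all pathways converge, and factor B (Cfb) binds C3b to form the alternative convertase, which amplifies the cleavage of C3. C3 had 1168 and 1280 CPM in CTRL, with 2688 and 2595 for AngII, 1894 and 1583 for AngII+2W and 1177 and 1215 for AngII+3W. The groups formed 3 separate levels, with AngII highest, AngII+2W between, and CTRL and AngII+3W together. C3 rose 2.16-fold in AngII, a log2 fold change of 1.11 (SE 0.177, edgeR FDR 0.0183). Cfb had 46.7 and 57.1 CPM in CTRL, with 147 and 164 for AngII, 68.9 and 45.3 for AngII+2W and 47.0 and 67.2 for AngII+3W. Only its AngII libraries stood apart among the 8, and its log2 fold change was 1.58 (SE 0.247, edgeR FDR 0.0174). A read-through gene, Gm20547, shares exons with C2 and Cfb (1656 and 2246 bases) and had at most 7 counts, and Zbtb12, which overlaps 161 bases of C2 on the other strand, had 68 to 149.

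C3ar1 encodes the receptor of C3a, known from macrophages and other myeloid cells. It had 9.89 and 6.77 CPM in CTRL, with 25.3 and 34.2 for AngII, 11.3 and 9.72 for AngII+2W and 7.63 and 10.7 for AngII+3W. Both AngII libraries stood above the other 6, which overlapped among groups. It had the largest change of the 9 genes in AngII, a log2 fold change of 1.83 (SE 0.262, edgeR FDR 0.0150), at the lowest level.

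The direction of these changes did not depend on a single library, but the calls did. In 8 fits that each left out 1 library, the log2 fold change in AngII ranged from 1.28 to 1.92 for C1qb, 1.04 to 1.17 for C3, 1.22 to 1.81 for C4b, 1.44 to 1.73 for Cfb and 1.58 to 2.13 for C3ar1. The number called was 0 without CTRL replicate 1 or AngII replicate 2, 1 without CTRL replicate 2 (C4b) or AngII replicate 1 (C3ar1), 2 without either AngII+2W library (Cfb and C3ar1) and 7 without either AngII+3W library. The calls over all genes moved too, from 877 to 29 without CTRL replicate 1, 0 without AngII replicate 2, 351 without CTRL replicate 2, 229 without AngII replicate 1, 280 and 282 without an AngII+2W library, and 1504 and 1492 without an AngII+3W library. A count of 0 among the 9 genes says nothing particular about them where no gene of the table was called. A fit without a library of CTRL or AngII leaves 1 library in that group, which is assumed to vary like the other groups. DESeq2 called all 9 genes higher, and called 9.27% of all genes in either direction.

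At AngII+2W, none of the 9 genes passed the FDR threshold against CTRL, nor did any gene of the table (0%). The log2 fold changes ranged from -0.05 (C4b) to 0.68 (C1ra). C3 (0.51, SE 0.175, edgeR FDR 0.368) and C2 (0.52, SE 0.199, edgeR FDR 0.407) had an unadjusted p below 0.05, which is 2 of the 9 genes against 4.52% of all genes higher. In C1ra, C2 and C3 both AngII+2W libraries were above both CTRL libraries, against 21.7% of all genes. DESeq2 called 1 of the 9, C3, and 2.17% of all genes.

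At AngII+3W the levels overlapped those of CTRL in 7 of the 9 genes. The log2 fold changes against CTRL ranged from -0.47 (C4b, SE 0.219, edgeR FDR 0.438) to 0.14 (C3ar1 and Cfb), with 3 positive and 6 negative. None was called, with 0.285% of all genes called, and none had an unadjusted p below 0.05, against 12.5% of all genes. DESeq2 called 0 of the 9 and 3.42% of all genes. In 2 of the genes, C2 and C4b, both libraries were below both CTRL libraries, against 18.3% of all genes, and for C4b the gap was between 285.6 and 285.9 CPM. C3 differed from CTRL by -0.03 on the log2 scale (SE 0.175). A p above the threshold does not show that the levels had returned to those of CTRL.

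**Figure D2:**
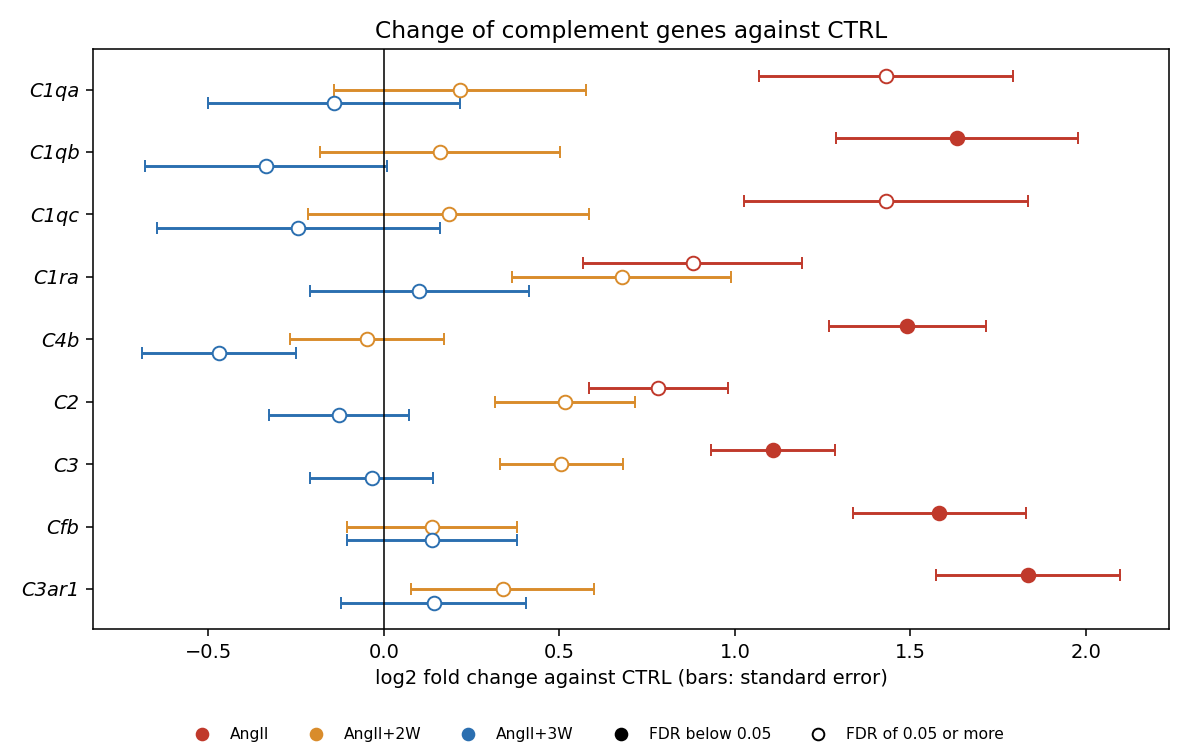
Log2 fold change against CTRL of the 9 complement genes in AngII, AngII+2W and AngII+3W, with bars of 1 standard error; filled points have an FDR below 0.05. The 3 series share the same CTRL libraries. All AngII points lie at 0.78 or above, and the AngII+3W points between -0.47 and 0.14.

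The infused groups were also compared with each other. At AngII+3W, C1qb, C4b, C3, Cfb and C3ar1 were lower than in AngII, and these are 5 of the 9 genes against 1.32% of all genes called lower. The log2 fold changes were -1.97 for C1qb (SE 0.351, edgeR FDR 0.0436), -1.96 for C4b (SE 0.227, edgeR FDR 0.0206), -1.14 for C3 (SE 0.177, edgeR FDR 0.0308), -1.45 for Cfb (SE 0.246, edgeR FDR 0.0417) and -1.69 for C3ar1 (SE 0.261, edgeR FDR 0.0307). All 9 genes had an unadjusted p below 0.05 and a lower level, against 10.4% of all genes, and both AngII+3W libraries were below both AngII libraries in all 9, against 24.2%. The comparison shares the AngII libraries with that against CTRL and is no independent evidence for them. Without AngII+3W replicate 1, the library rich in skeletal muscle genes, 0 of the 9 were called, with log2 fold changes of -1.54 for C1qb and -1.11 for C3 among them. The number was also 0 without AngII replicate 1, AngII replicate 2 or either AngII+2W library, 1 without CTRL replicate 2, 2 without CTRL replicate 1 and 8 without AngII+3W replicate 2. Over all genes, 276 were called with all libraries in the fit, 22 without AngII+3W replicate 1 and without either AngII+2W library, 64 and 3 without AngII replicates 1 and 2, 134 and 127 without CTRL replicates 1 and 2, and 1005 without AngII+3W replicate 2. DESeq2 called 8 of the 9, and 5.52% of all genes.

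At AngII+2W the difference from AngII was not called for any of the 9 genes, with 0.14% of all genes called lower. C4b (-1.54, edgeR FDR 0.0598), Cfb (-1.45, edgeR FDR 0.0655) and C3ar1 (-1.50, edgeR FDR 0.0661) had the lowest FDRs, while C2 (-0.27) and C1ra (-0.20) had the smallest differences. The other 7 had an unadjusted p below 0.05 and a lower level, against 8.45% of all genes, and the same 7 had both libraries below both AngII libraries, against 27.5%. DESeq2 called 7 of the 9 and 3.99% of all genes. Without either AngII+3W library, edgeR called 4 (C1qb, C4b, Cfb and C3ar1). Between AngII+3W and AngII+2W no gene of the table was called (0%). The complement genes had log2 differences of -0.64 (C2) to -0.00026 (Cfb), and C2 and C3 had an unadjusted p below 0.05 and a lower level, 2 of 9 against 4.22% of all genes. In 3 of the 9 both AngII+3W libraries were lower, against 19.7%, and DESeq2 called 1 of the 9 and 1.26% of all genes.

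Levels of different genes were compared as CPM per kb of merged exons. C3 was the most abundant of the 9 in CTRL, at 238 ± 15.4 CPM per kb (SD, n = 2 libraries), followed by C4b at 66.9 ± 19.4. The C1q chains C1qa (29.0 ± 4.85), C1qc (24.0 ± 4.03) and C1qb (22.9 ± 4.71) came next, in this order in both CTRL libraries. The order of C1qb and Cfb (18.4 ± 2.60) differed between the CTRL libraries, as did that of Cfb and C1ra (17.5 ± 1.501). C2 (9.05 ± 0.0298) and C3ar1 (1.94 ± 0.512) were lowest. In AngII the order was the same at both ends, with C3 at 514 ± 12.7, C4b at 188 ± 18.6 and C3ar1 at 6.90 ± 1.46 CPM per kb. The other genes stood at 78.2 ± 26.6 (C1qa), 71.0 ± 21.9 (C1qb), 64.5 ± 26.5 (C1qc), 55.0 ± 4.19 (Cfb), 32.2 ± 9.18 (C1ra) and 15.6 ± 3.82 (C2).

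Genes of 1 complex or neighbourhood kept their proportions to a different degree. Per length, C1qa was 1.07 to 1.47 times C1qb and C1qc was 0.824 to 1.16 times C1qb over the 8 libraries, while the summed counts of the 3 chains ranged 7.40-fold. In AngII, C1qa was 1.07 and 1.12 times C1qb, and C1qc was 0.824 and 0.962 times C1qb. Both ratios were lower in the AngII libraries than in the other 6. The ratio of C1ra to its partner C1s1 was 0.415 to 0.589. Cfb, next to C2 on the same strand, was 1.83 and 2.23 times C2 in CTRL, 4.05 and 3.18 times in AngII, 1.67 and 1.42 times in AngII+2W, and 2.18 and 2.66 times in AngII+3W. Both AngII ratios were above the other 6. C3 was 4.28 and 3.09 times C4b in CTRL, 2.60 and 2.89 times in AngII, 5.55 and 4.89 times in AngII+2W, and 5.26 and 4.46 times in AngII+3W, so that the ratio was lowest in AngII. These ratios were not tested.

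Profiles over the 8 libraries were compared by the root mean square difference of log2 CPM, each gene centred on its mean. The closest pair was C1qa and C1qc (0.0687), then C1qb with C1qc (0.137), C1qb with C1qa (0.145), and C1ra with C2 (0.183). C3 was nearest to C2 (0.209), C3ar1 to C1qb (0.247) and Cfb to C3ar1 (0.266), and C1ra and C4b were farthest apart (0.613). Among 15150 other genes with a mean of at least 1 CPM, the nearest to C1qb were Col5a2 (0.0850), Col5a1 (0.130), Fcgr3 (0.140), C5ar1 (0.151) and Loxl2 (0.162), which include collagen V chains, an Fc receptor and the C5a receptor. The mean level of Col5a2 was 260.5 CPM for CTRL and 867 CPM for AngII. The nearest to C3 were Arhgdib (0.130), Tcn2 (0.135), Tmem176b (0.146), Ubash3b (0.1503) and Plvap (0.152). Those nearest to C4b were farther away, namely H3c4 (0.169), Plppr3 (0.202), Ccl19 (0.209), E2f2 (0.211) and Tpx2 (0.232). All profiles come from the same 8 libraries, and the differences are descriptions.

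Of 46 other complement genes, 36 were tested. In AngII 5 were called higher than in CTRL and 0 lower, against 2.9% and 2.2% of all genes. At an unadjusted p below 0.05, 15 were higher and 0 lower, against 10.9% of all genes higher. The median log2 fold change was 0.63. Among the genes that start the pathways, 1 of 5 tested was called, C1s1, the protease partner of C1r. It had 96.3 and 97.4 CPM in CTRL and 185 and 238 in AngII, a log2 fold change of 1.13 (SE 0.216, edgeR FDR 0.0311). Of 2 tested genes of the alternative pathway, properdin (Cfp), which stabilises the alternative convertase, rose by 1.21 on the log2 scale (SE 0.266, edgeR FDR 0.0447), from 12.2 and 10.9 CPM to 19.9 and 33.6. The other was factor D (Cfd, also called adipsin), which cleaves factor B and is a product of fat cells. Its level per length was the highest of all the complement genes, at 1675 ± 600.3 CPM per kb in CTRL and 2321 ± 105 in AngII (n = 2), and it did not pass (log2 fold change 0.47, edgeR FDR 0.345).

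Of 5 tested terminal components, which form the membrane attack complex, C6 was called. It had 1.32 and 1.27 CPM in CTRL and 5.56 and 3.98 in AngII (log2 fold change 1.88, SE 0.350, edgeR FDR 0.0287), and 1.24 and 1.504 CPM in AngII+3W. Of 15 regulators, 1 was called, Csmd1, an inhibitor of the classical pathway, at 8.19 and 8.37 CPM in CTRL, 14.7 in both AngII libraries, and 13.3 and 14.4 in AngII+3W. Its log2 fold change was 0.83 in AngII (SE 0.144, edgeR FDR 0.0228) and 0.74 in AngII+3W (edgeR FDR 0.0893). Serping1, the C1 inhibitor, had the highest level per length of the regulators, 62.5 ± 12.02 CPM per kb in CTRL and 151 ± 51.6 in AngII (n = 2), and did not pass (log2 fold change 1.27, edgeR FDR 0.125). Of 9 receptors and binding proteins, Itgam, the alpha chain of complement receptor 3, rose from 14.2 and 16.7 CPM to 33.7 and 43.1 (log2 fold change 1.31, SE 0.2502, edgeR FDR 0.0304). Calreticulin (Calr), which binds C1q and is mainly a chaperone, had the highest level of this group, 180 ± 8.02 CPM per kb in CTRL (n = 2), and a log2 fold change of 0.35 (edgeR FDR 0.228).

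In AngII+3W, 4 of the 36 other complement genes were lower than in AngII, against 1.32% of all genes, namely Cfp (-1.56, edgeR FDR 0.0428), Itgam (-1.68, edgeR FDR 0.0297), Calr (-1.06, edgeR FDR 0.0252) and Clu (-1.62, edgeR FDR 0.0286), which encodes clusterin, an inhibitor of the terminal complex. Clu had 265 and 224 CPM in CTRL, with 394 and 273 for AngII, 136 and 130.0 for AngII+2W and 129 and 87.9 for AngII+3W, so that all 4 libraries after the infusion were below CTRL. Against CTRL its log2 fold change in AngII+3W was -1.17 (edgeR FDR 0.0948), and that of Calr was -0.71 (edgeR FDR 0.0976), and neither passed. None of the 36 was called in AngII+2W or AngII+3W against CTRL, with 6 and 4 at an unadjusted p below 0.05 in either direction, where 1838 of all 17182 genes had one in AngII+2W and 12.5% in AngII+3W. DESeq2 called 1 and 3 of the 36, and 2.17% and 3.42% of all genes. In the 8 fits without 1 library, 0 to 10 were called in AngII against CTRL (0 without either CTRL library or AngII replicate 2, 1 without AngII replicate 1, 2 without either AngII+2W library, 10 without either AngII+3W library) and 0 to 8 in AngII+3W against AngII (1 without either CTRL library or AngII replicate 1, 0 without AngII replicate 2, either AngII+2W library or AngII+3W replicate 1, 8 without AngII+3W replicate 2). The calls over all genes in these fits, given with the 9 genes, ranged from 0 to 1504 in the first comparison and from 3 to 1005 in the second.

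**Figure D3:**
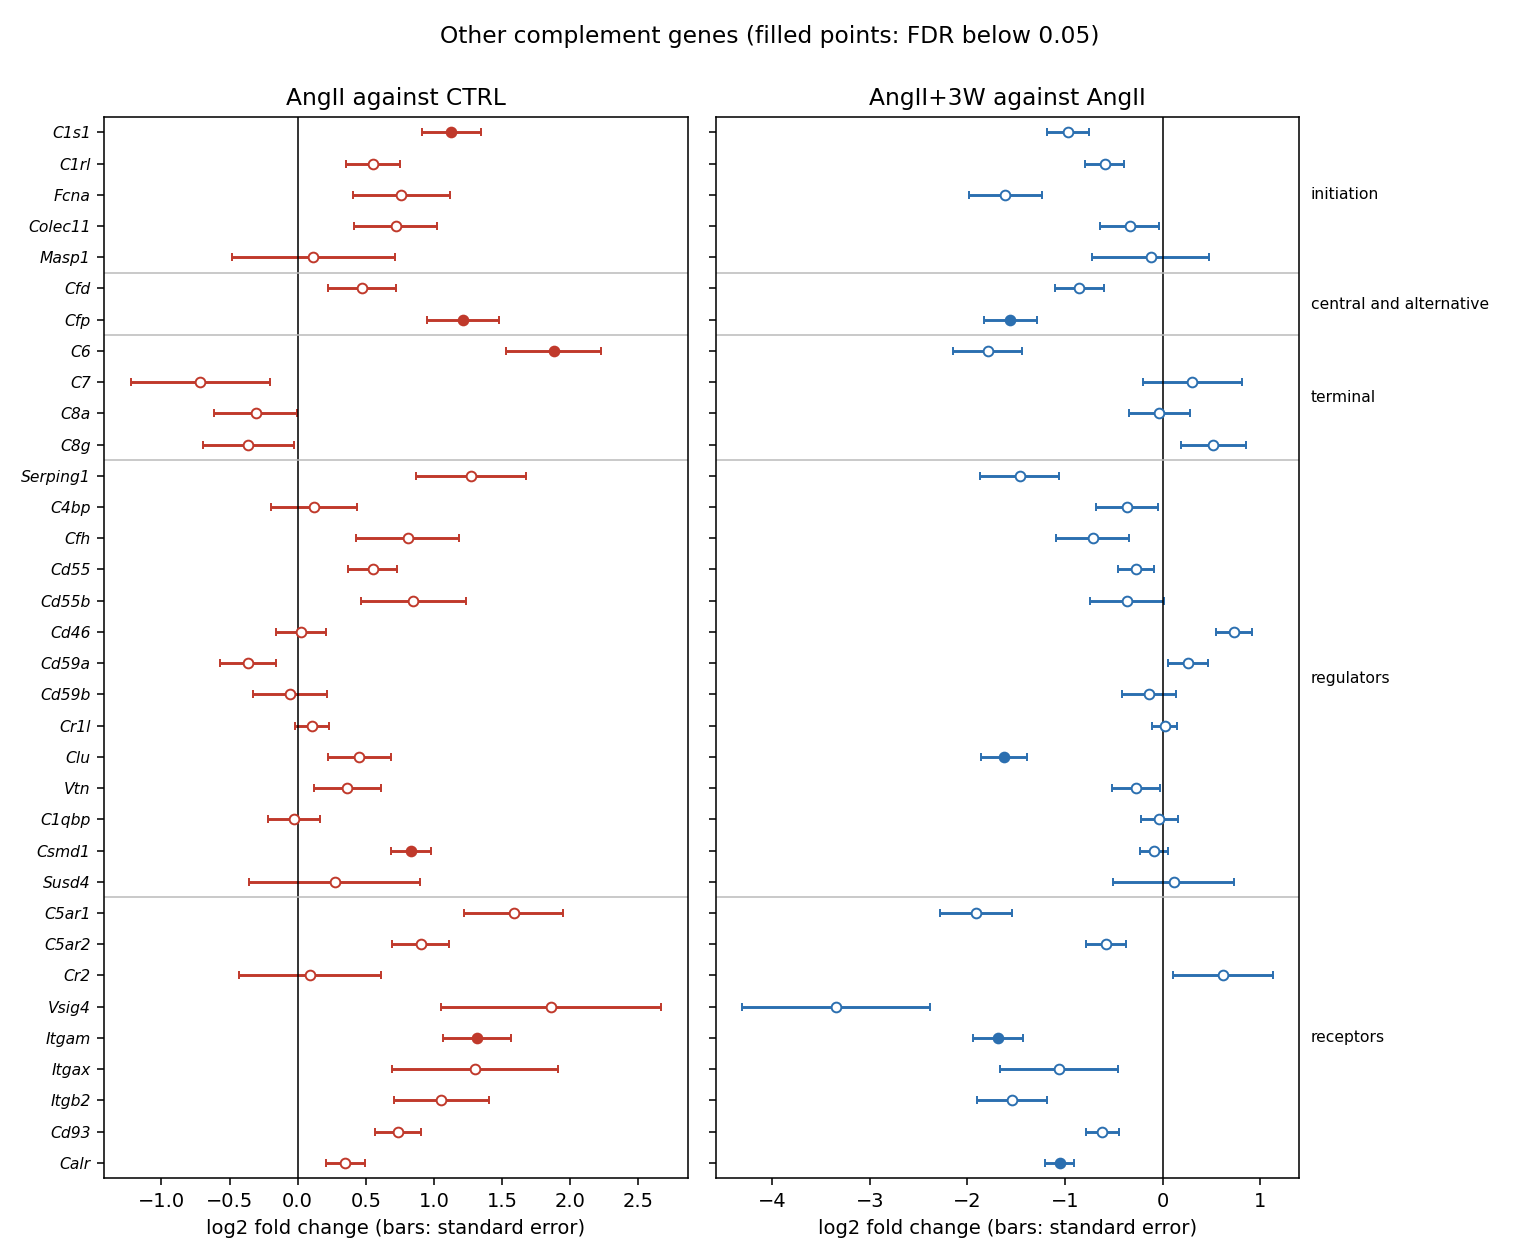
Log2 fold change of 34 other complement genes, in 5 groups by role, for AngII against CTRL (left) and AngII+3W against AngII (right), with bars of 1 standard error and filled points for an FDR below 0.05; the scales of the panels differ. Hc and Cfi are not drawn because a group had at most 3 counts in each library. Called genes lie right of 0 in the left panel and left of 0 in the right panel.

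Markers of macrophages, the main source of C1q, moved with the C1q genes. Of 13 macrophage markers, 5 were called higher in AngII, against 2.9% of all genes, among them Adgre1 (log2 fold change 1.82, edgeR FDR 0.0258), Cd68 (2.13, edgeR FDR 0.0210) and Mrc1 (1.71, edgeR FDR 0.0426), with a median of 1.55, and Mertk alone was lower in both libraries (-0.85, not called). They held 0.0351% to 0.0487% of the counts in CTRL, 0.0774% to 0.127% in AngII, 0.0540% to 0.0544% in AngII+2W and 0.0273% to 0.0487% in AngII+3W. For every 100 counts of these markers there were 19.0 and 21.2 C1q counts in CTRL, with 22.7 and 24.4 for AngII, 18.9 and 16.6 for AngII+2W and 15.4 and 20.6 for AngII+3W. This ratio ranged 1.59-fold, with AngII highest, while the marker counts ranged 4.66-fold. The marker sum includes Mertk, at a mean of 83.6 CPM in CTRL and 46.3 CPM in AngII. Mertk thus lowers the ratio more in CTRL than in AngII. The part of macrophage number in the level of the C1q genes was not tested.

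Some markers of fibroblasts, which are known to make C3, C4 and factor B, rose as well. Of 10 tested, Lum (log2 fold change 2.90, edgeR FDR 0.0150) and Col1a1 (3.03, edgeR FDR 0.0322) were called higher in AngII, against 2.9% of all genes. The list held 0.364% to 0.529% of the counts in CTRL, 1.39% to 2.36% in AngII, 0.599% to 0.858% in AngII+2W and 0.271% to 0.676% in AngII+3W. Most of this share was Col1a1 (mean 1093 CPM in CTRL and 8908 in AngII) and Col1a2 (1421 and 6451). Gsn alone of the list had a lower mean in AngII (1121 CPM) than in CTRL (1249 CPM). Of 7 smooth muscle markers 6 were called lower in AngII, against 2.2% of all genes, and the list held 0.744% to 0.920% in CTRL, 0.169% to 0.226% in AngII, 0.360% to 0.389% in AngII+2W and 0.161% to 0.345% in AngII+3W. No adipocyte (6 genes), endothelial (6 genes), T cell (6 genes) or B cell (5 genes) marker was called by edgeR in AngII against CTRL, with 1 of each list at an unadjusted p below 0.05. Over all genes, 3474 of 17182 had such a p in either direction. None of the 3 tested of 5 neutrophil markers was called, and Ly6g was at 0 in 7 libraries and had 2 counts in AngII replicate 2. The part of these cells in the complement changes was not tested.

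Liver genes differed between libraries of the same group. Alb, which encodes albumin, had 1 and 579 counts for CTRL, with 723 and 1 for AngII, 219 and 288 for AngII+2W and 17 and 1 for AngII+3W, and the 7 liver markers held 0.000160% to 0.00584% of a library. In the CTRL and AngII libraries with 1 Alb count, C3 was at 1168 and 2595 CPM, and in those with many it was at 1280 and 2688 CPM. The part of liver tissue in the levels of the complement genes was not tested. A fit without CTRL replicate 2 and AngII replicate 1, chosen after the data were examined, gave log2 fold changes of 1.16 for C3, 1.73 for C4b, 1.82 for Cfb, 1.73 for C1qb and 1.80 for C3ar1. No gene of the table was called in that fit, which has 1 library in each of the groups compared, and 2488 genes had an unadjusted p below 0.05. The complement genes Hc (component C5), C8b and C9, named after their values were seen, had more counts in CTRL replicate 2 and AngII replicate 1, the libraries rich in Alb, than in their partners. Hc had 2 and 16 counts for CTRL, with 40 and 3 for AngII, 6 and 13 for AngII+2W and 0 for both AngII+3W libraries, and C8b and C9 had at most 9 and 7 counts.

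**Figure D4:**
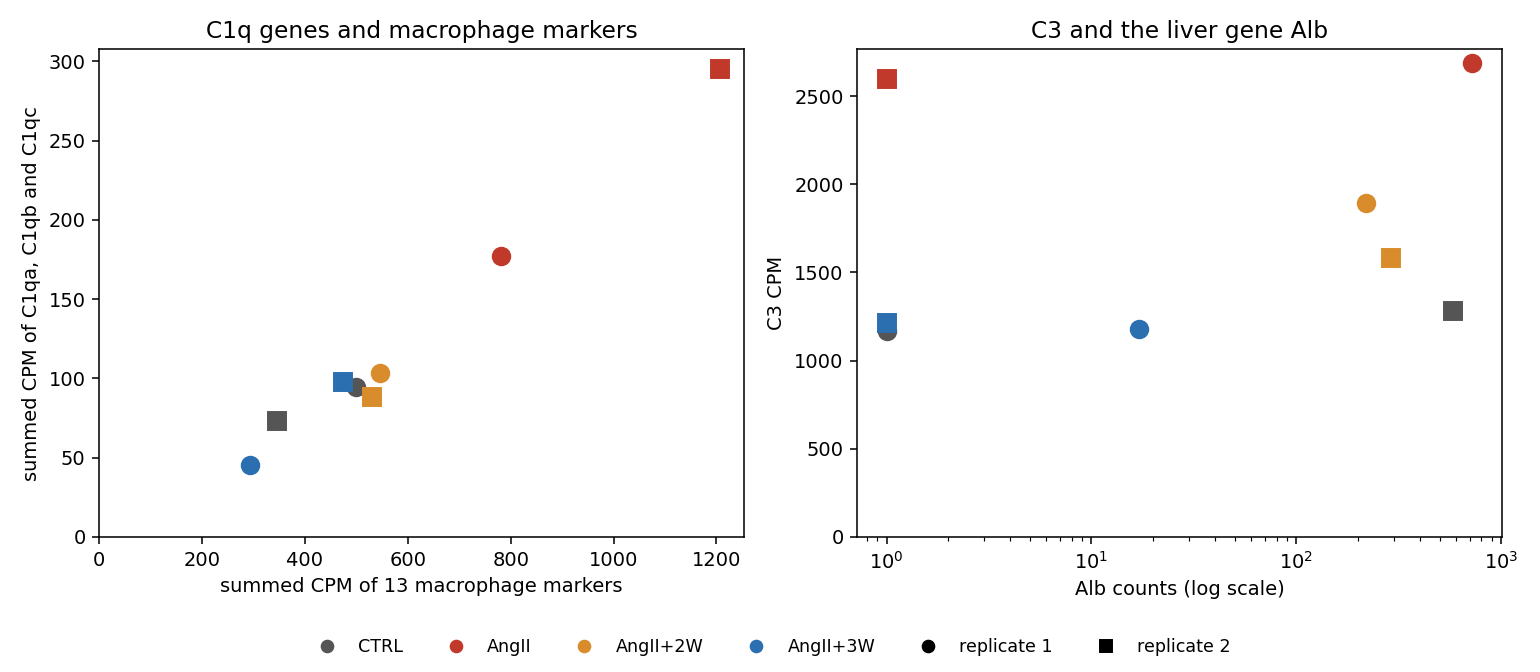
Left, summed CPM of C1qa, C1qb and C1qc against summed CPM of 13 macrophage markers in the 8 libraries (linear axes); right, CPM of C3 against counts of Alb (log scale). Colours are groups, circles replicate 1 and squares replicate 2. On the left both AngII libraries are at the upper right; on the right the AngII libraries have 2595 and 2688 CPM of C3 at 1 and 723 Alb counts.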

How the data were processed

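RNA-sequencing of whole aorta was analysed from 8 libraries, grouped by their labels. The authors depleted ribosomal RNA, sequenced all libraries in 1 lane, estimated transcript abundances with Salmon on mouse cDNA (GRCm38) and imported them with tximeta, and the deposited table holds the resulting expected counts per gene as whole numbers, without normalization. The Salmon version and the strand setting are not given in the sources used here.

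The test was that of edgeR 4.0.16, run in R 4.3.3 (filterByExpr, TMM, legacy quasi-likelihood F test). All 8 libraries were in 1 fit with 1 coefficient per group and 4 residual degrees of freedom, for 6 comparisons. P-values are two-sided, were adjusted over 17182 genes (FDR, threshold 0.05) and measure the spread between pools of 2 mice. Standard errors are the absolute log2 fold change divided by the square root of F. On simulated data, the median estimates of the script came close to the fold changes set. The simulation held no outlying library or foreign tissue, so it does not bear on calls that depend on 1 library. DESeq2 1.42.0, other scalings and filters, fits restricted to the groups compared, a replicate block and fits without 1 library were alternatives. Gene lengths and positions are from GENCODE annotation on GRCm38, sequences from RefSeq, and similar transcripts were searched with BLAST 2.17.0.

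The members and gene lists were chosen with earlier results of these data known. Named are every member, other complement genes past the threshold in any comparison and the 3 highest per length, up to 3 examples of a marker list, and the 5 nearest profiles of C1qb, C3 and C4b.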

Additional observations from a re-analysis of the deposited data

How the results depend on the processing

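Of the log2 fold changes of the 9 genes, none that was called changed sign. The number called in AngII against CTRL (5) was 9 with the DESeq2 test and 0 to 7 without 1 library. In AngII+3W against AngII (5) it was 3 with library totals alone, 8 with every gene of at least 1 count and with DESeq2, 0 with only the 2 groups compared and 0 to 8 without 1 library. In AngII+2W against AngII (0) it was 3 with every gene, 7 with DESeq2, 5 with only the 2 groups and 0 to 4 without 1 library. DESeq2 called 1 in AngII+2W against CTRL and 1 in AngII+3W against AngII+2W. Over all genes, AngII against CTRL had 877 calls, and 1132 with every gene, 1592 with DESeq2 and 1149 with only the 2 groups. AngII+3W against AngII had 276, and 179 with library totals alone, 522 with every gene, 948 with DESeq2 and 0 with only the 2 groups. AngII+2W against AngII had 28, and 242 with every gene, 685 with DESeq2 and 884 with only the 2 groups. AngII+3W against CTRL had 49, and 200 with every gene. A count of 0 says nothing particular where no gene was called. Of the other complement genes, 5 in AngII against CTRL became 8 with every gene, 10 with DESeq2, 8 with only the 2 groups and 0 to 10 without 1 library. For them, 4 in AngII+3W against AngII became 10 with every gene, 14 with DESeq2, 0 with only the 2 groups and 0 to 8 without 1 library. The counts of 0 became 1 with every gene and 4 with DESeq2 or only the 2 groups in AngII+2W against AngII (0 to 1 without 1 library), 1 with every gene and 3 with DESeq2 in AngII+3W against CTRL, and 1 with DESeq2 in AngII+2W against CTRL and in AngII+3W against AngII+2W. Without CTRL replicate 2 and AngII replicate 1 together, all of these counts were 0.

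Signs changed only for differences that were not called. Without 1 library, in AngII+2W against CTRL the log2 fold change ranged from -0.035 to 0.40 for C1qb, -0.31 to 0.28 for C4b and -0.21 to 0.40 for Cfb. In AngII+3W against CTRL it ranged from -0.84 to 0.30 for C1qa, -0.99 to 0.084 for C1qb, -1.02 to 0.23 for C1qc, -0.45 to 0.47 for C1ra, -0.11 to 0.021 for C3, -0.20 to 0.37 for Cfb and -0.18 to 0.44 for C3ar1. In AngII+2W against AngII it ranged from -0.48 to 0.13 for C1ra and -0.51 to 0.014 for C2, and in AngII+3W against AngII+2W from -1.05 to 0.085 for C1qa, -1.20 to 0.048 for C1qc, -0.33 to 0.32 for Cfb and -0.51 to 0.028 for C3ar1. Without CTRL replicate 2 and AngII replicate 1 together, it was -0.035 for C1qb and 0.28 for C4b in AngII+2W against CTRL, and -0.0016 for C1ra, 0.0099 for C3 and -0.13 for C3ar1 in AngII+3W against CTRL. The cause was not tested.

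Replicates with the same number come from different mice, and the labels give no link between them beyond the number. With the replicate block, 2 of the 9 genes (C3 and C4b) were called in AngII+3W against AngII, and 4 (C3, C4b, Cfb and C3ar1) in AngII against CTRL. Over all genes, the block gave 221 calls in AngII+3W against AngII and 870 in AngII against CTRL. The replicate differences of 2 groups had correlations of -0.04 (AngII and CTRL) to 0.25 (AngII+3W and AngII) over 17182 genes, and 2 pairs cannot settle a pairing. With 2 libraries per group and 4 residual degrees of freedom, 1 library can decide a call.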

Other observations

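Cfi and C5ar1 were named after their values were seen. Cfi, which encodes the protease factor I that inactivates C3b, had 0 and 3 counts for CTRL, with 34 for both AngII libraries, 1 and 8 for AngII+2W and 0 for both AngII+3W libraries, with an edgeR FDR of 0.0684 in AngII against CTRL. C5ar1, the receptor of C5a, had 171 and 103 counts for CTRL, with 264 and 532 for AngII, 174 and 134 for AngII+2W and 76 and 119 for AngII+3W, with a log2 fold change of 1.58 in AngII (edgeR FDR 0.0519). The terminal component C7 differed between libraries of the same group, with 3237 and 1219 counts in CTRL and 3156 and 1333 in AngII+2W.

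The neutrophil genes S100a8 and S100a9 were highest in AngII+2W. S100a8 had 17 and 24 counts for CTRL, with 13 and 23 for AngII, 43 and 53 for AngII+2W and 8 and 4 for AngII+3W. S100a9 had 23 and 39 counts for CTRL, with 18 and 45 for AngII, 79 and 94 for AngII+2W and 7 and 10 for AngII+3W. Neither was called in AngII+2W against CTRL (edgeR FDR 0.336 and 0.301).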
